A study of Mus musculus with 19 samples.

Results

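FDCPmix cells at 23 h after tamoxifen were compared with the same line at 0 h on 2-colour arrays. FDCPmix is a mouse haematopoietic progenitor line that depends on interleukin-3 and can form granulocytes, macrophages, mast cells and red cells. The 23 h arrays were chosen by their source label and are 3 of the 19 arrays in all: replicates 1, 3 and 4, while 23 h replicate 2 was not analysed here. Each array set the RNA of a treated culture at its time against RNA of treated cells at 0 h, so the 0 h cells carry the label treated too. Cells at 3 h, at 7 h and at 12 h after the drug, each on 4 arrays, were set against the same kind of 0 h RNA; 4 further arrays of treated cells with no stated time had non-treated cells as reference and entered only 1 alternative fit. The labels name no genotype, transgene, dose or vehicle, carry the words ES cell line without explanation, and describe RNA preparation from organs and a reference pooled from control animals, which a cell line would not give. The time groups share their reference, and nothing states that replicates came from separate cultures, so p-values measure the spread between these arrays only. The values are ratios of 2 RNAs, with no level of either, so the labelled cell type could not be checked by the level of its markers. In bulk RNA, fewer cells of a type and less RNA per cell cannot be told apart.

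Neutrophils are built in steps: primary granule proteins such as myeloperoxidase and elastase are made in promyelocytes, secondary granule proteins such as lactoferrin and cathelicidin in myelocytes, and gelatinase later. Transcription factors of the ETS family (PU.1) and the C/EBP family act on many of these genes. Tamoxifen binds the oestrogen receptor and is used to switch on proteins fused to its ligand-binding domain, but the labels name no such fusion.

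The neutrophil granule list had the median farthest from 0 at 23 h, and the promoters of 4 of its genes are shown: Mpo and Elane for the primary granules, Ltf and Ngp for the secondary ones. The sequences are RefSeq's, build GRCm38.p6, for a window across the gene start that lies mostly before it, 5' to 3'. Capitals mark GAGGAA (the core of a PU.1-type motif) and TTGCNNAA (a C/EBP-type motif), searched on both strands; the motifs do not overlap in these 4.
Mpo, chr11:87793534-87793833, + strand: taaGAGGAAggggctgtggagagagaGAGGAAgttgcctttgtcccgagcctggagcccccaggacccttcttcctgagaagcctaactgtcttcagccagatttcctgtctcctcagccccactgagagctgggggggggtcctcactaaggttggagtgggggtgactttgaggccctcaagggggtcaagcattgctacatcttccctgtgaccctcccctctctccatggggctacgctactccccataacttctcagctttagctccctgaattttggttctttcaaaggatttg
Elane, chr10:79886062-79886361, + strand: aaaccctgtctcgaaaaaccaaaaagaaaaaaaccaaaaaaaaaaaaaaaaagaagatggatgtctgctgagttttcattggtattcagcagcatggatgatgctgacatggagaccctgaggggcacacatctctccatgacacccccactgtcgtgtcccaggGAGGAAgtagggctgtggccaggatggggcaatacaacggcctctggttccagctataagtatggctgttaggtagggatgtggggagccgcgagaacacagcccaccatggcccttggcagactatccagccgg
Ltf, chr9:111019042-111019341, + strand: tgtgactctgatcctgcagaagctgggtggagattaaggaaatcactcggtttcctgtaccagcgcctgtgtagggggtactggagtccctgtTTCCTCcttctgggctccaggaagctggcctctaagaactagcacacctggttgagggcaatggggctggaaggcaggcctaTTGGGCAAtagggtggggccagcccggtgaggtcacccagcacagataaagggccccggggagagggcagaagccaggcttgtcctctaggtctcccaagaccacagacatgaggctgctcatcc
Ngp, chr9:110419558-110419857, + strand: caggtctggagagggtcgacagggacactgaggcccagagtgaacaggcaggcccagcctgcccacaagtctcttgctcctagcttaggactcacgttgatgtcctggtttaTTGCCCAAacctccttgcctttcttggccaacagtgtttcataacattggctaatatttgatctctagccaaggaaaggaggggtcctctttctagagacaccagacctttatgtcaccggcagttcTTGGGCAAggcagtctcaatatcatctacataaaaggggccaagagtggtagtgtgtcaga
GAGGAA stood 2 times in the Mpo window, 1 time in those of Elane and Ltf and 0 times in that of Ngp. TTGCNNAA stood 1 time in the Ltf window, 2 times in that of Ngp and 0 times in those of Mpo and Elane. Of 18 granule genes on the array, 15 had a promoter in the table; 9 of these (60.0%) held GAGGAA, against 28.3% of all 32851 promoters, and 6 (40.0%) held TTGCNNAA, against 10.8%. A match is a description of the letters and not a binding site.

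The direction of the deposited ratios is not stated. Positive was read as higher at 23 h than at 0 h, which is assumed, and the logarithm was taken as base 2. A repeated extreme value on each array was positive where the 23 h or other own RNA was in Cy5. It was negative where that RNA was in Cy3, with 7 h replicate 4 as the exception. This pattern bears only on whether the ratios turn with the dye. It cannot tell which RNA is the numerator. If the 0 h RNA was the numerator, every direction given here is reversed. If instead the sign of every Cy3 array is changed, replicates 1 and 4 oppose each other, and 48 of the genes named here change direction and 45 keep it. At 23 h the own RNA was in Cy5 on replicate 1 and in Cy3 on replicates 3 and 4. The 3 arrays had values for 20128, 20136 and 20128 of 20205 probes, and their deposited medians were 0, 0.233 and 0.003 for replicates 1, 3 and 4; each array was centred on its median. The number of arrays limits the precision.

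Replicate 3 correlated negatively with replicates 1 and 4, which correlated little with each other. Across 16048, 16041 and 16043 features, Pearson's r was -0.149 for replicates 1 and 3, 0.022 for replicates 1 and 4, and -0.078 for replicates 3 and 4. Spearman's rho was -0.253, 0.103 and -0.153 in the same order; these are descriptions across features of arrays that share a reference. Of 16008 features with a value on all 3 arrays, 118 lay beyond 0.5 on the same side on replicates 1 and 4, and 82 of them (69.5%) lay on the opposite side on replicate 3. The same share was 65.8% (50 of 76) on replicate 1 where replicates 3 and 4 agreed, and 55.6% (40 of 72) on replicate 4 where replicates 1 and 3 agreed. Only 3109 features (19.4%) lay on the same side on all 3 arrays, 1601 above 0 and 1508 below. The extreme value of replicate 3 has the sign that its dye label gives elsewhere. The doubt about this array comes from its deposited median of 0.233 and from how its values run against the other 2 arrays. At 7 h, replicate 4 stood against its group in the same way: the granule list median was 0.39 there, against -0.32, -0.18 and -0.41 on replicates 1, 2 and 3. Results are therefore given with and without 23 h replicate 3, and also without both arrays in doubt, 23 h replicate 3 and 7 h replicate 4. Leaving out the 7 h array keeps every 23 h value as it is and changes the spread that the standard error uses. Measured values, those of the granule genes among them, helped to put both arrays in doubt, and leaving out an array that runs against its group lowers the spread of the genes that show it, so calls without them are not independent of those values.

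**Figure D1:**
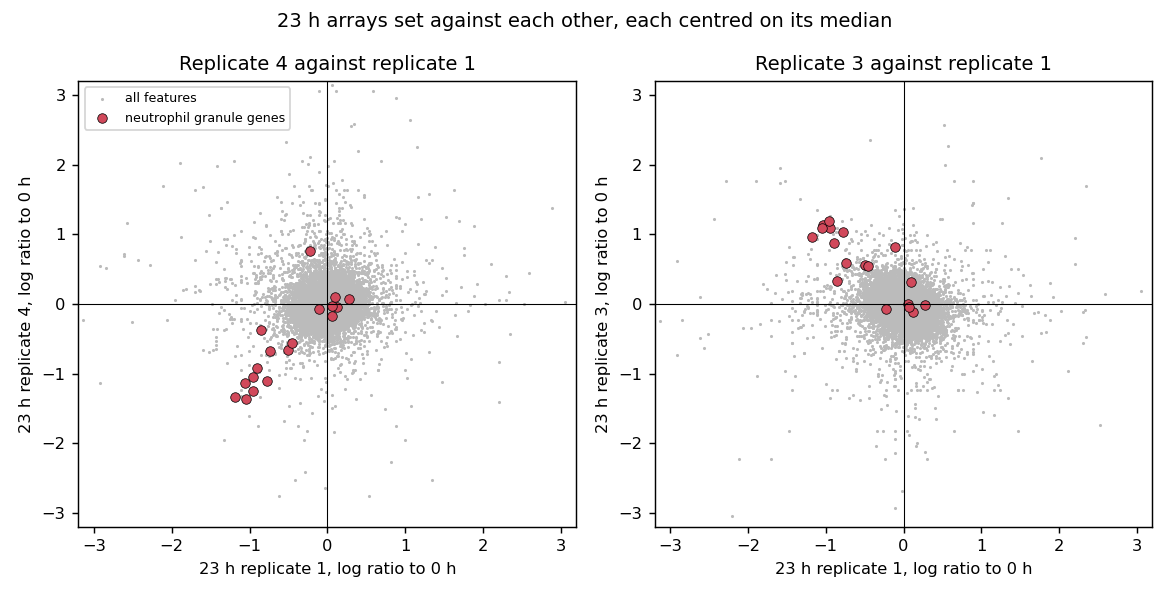
Each grey point is a feature (a gene or an unnamed probe), with its log2 ratio to 0 h on 23 h replicate 1 on the x axis and on replicate 4 (left) or replicate 3 (right) on the y axis; red points are the 18 neutrophil granule genes. The low granule genes of replicate 1 are low on replicate 4 and high on replicate 3, and 18 features beyond 3.2 in size are off the axes.

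With all 3 arrays, no feature of 16116 was called at an adjusted p under 0.05 (0.0%; limma with Benjamini-Hochberg adjustment over all features), and 541 (3.36%) had an unadjusted p under 0.05. Without replicate 3, 1 of 16041 features was called (0.00623%), Mpo, and 1178 had an unadjusted p under 0.05, 611 lower (3.81%) and 567 higher (3.53%). Without both arrays in doubt, 59 features were called (0.368%), 38 lower (0.237%) and 21 higher (0.131%). With the signs of these 2 arrays turned instead of leaving them out, 129 were called (0.8%). Below, fell and rose are used only of genes called in a named fit. Calls without both arrays in doubt are not independent of the values that put these arrays in doubt.

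Mpo, myeloperoxidase, was at -0.90, 0.88 and -0.92 on replicates 1, 3 and 4. It was low on replicates 1 and 4 and equally high on replicate 3. Without replicate 3 it fell by 0.91 (SE 0.09, adjusted p = 0.00848, limma, n = 2), in both of the 2 arrays. With replicate 3 kept, the estimate was -0.34 (SE 0.24, adjusted p = 1.0, limma, n = 3), and with the sign of every Cy3 array changed and replicate 3 left out it was 0.01. Elane, neutrophil elastase of the same granules, was at -0.78, 1.04 and -1.10 on replicates 1, 3 and 4. Its estimate without replicate 3 was -0.94 (SE 0.14, adjusted p = 0.0924, limma, n = 2), and without 7 h replicate 4 too it fell (SE 0.08, adjusted p = 0.000474). Prtn3, proteinase 3, another serine protease of the primary granule, was at 0.09, 0.32 and 0.10 and thus slightly above 0 on every 23 h array (unadjusted p = 0.46 without replicate 3).

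The 4 lowest estimates of the list were those of Ltf, Camp, Mmp8 and Ngp, which belong to the secondary granules. Ltf, the iron-binding lactoferrin, was at -1.18, 0.97 and -1.34 on replicates 1, 3 and 4. Camp, the cathelicidin precursor, was at -1.04, 1.13 and -1.36, and Ngp, neutrophilic granule protein, at -1.05, 1.09 and -1.14. Mmp8, neutrophil collagenase, was at -0.95, 1.19 and -1.26. Each of these 4 was below -0.9 on replicates 1 and 4 and above 0.9 on replicate 3. The 4 genes are the lowest of the list and the 3 arrays are of the same time, so this split describes and does not test. Of 16008 features, 37 lay beyond 0.75 on the same side on replicates 1 and 4. Of these 37, 15 lay beyond 0.75 on the other side on replicate 3. Without replicate 3 their estimates were -1.26 (SE 0.22) for Ltf, -1.20 (SE 0.27) for Camp, -1.09 (SE 0.19) for Ngp and -1.11 (SE 0.23) for Mmp8, with adjusted p between 0.095 and 0.207 (limma, n = 2). Without 7 h replicate 4 too, all 4 fell, with adjusted p between 0.000615 and 0.00465. Values of the granule genes helped to put both arrays in doubt, so these calls are not independent of them. Lcn2, which binds bacterial siderophores, was at -0.45, 0.54 and -0.56, and fell in that fit (adjusted p = 0.0394). Mmp9, the gelatinase, was at 0.07, -0.04 and -0.03, close to 0 on each array.

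Lyz2, the lysozyme of neutrophils and macrophages, was at -0.95, 1.08 and -1.05 on replicates 1, 3 and 4, an estimate of -1.002 without replicate 3 (SE 0.19, adjusted p = 0.111, limma). S100a9, a calcium-binding subunit of calprotectin, was at -0.74, 0.58 and -0.67, and its partner S100a8 at -0.86, 0.33 and -0.37. Without both arrays in doubt Lyz2 (adjusted p = 0.000783) and S100a9 (adjusted p = 0.00742) fell, and S100a8 was not called (adjusted p = 0.222). Anxa1, annexin A1, was at -0.50, 0.56 and -0.67 and was not called in that fit (adjusted p = 0.31). Of the NADPH oxidase subunits, Cybb had the same order of arrays with small values on replicates 1 and 4, at -0.10, 0.82 and -0.07. Cyba, at 0.28, -0.01 and 0.07, and Ncf4, at -0.22, -0.08 and 0.76, did not. Chil3, a chitinase-like protein, was at 0.06, -0.01 and -0.17, and Cebpe, a factor needed for late granules, at 0.12, -0.12 and -0.04.

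**Figure D2:**
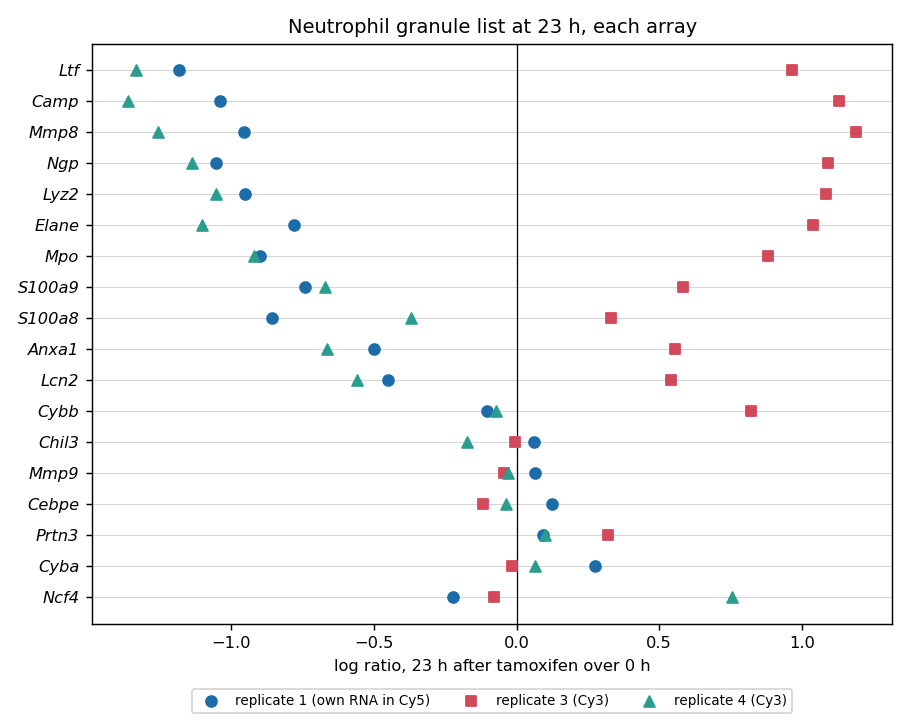
Log2 ratio of 23 h over 0 h (x axis) of the 18 genes of the neutrophil granule list (rows), with 1 symbol per 23 h array. For 11 genes, Lcn2 to Ltf, replicates 1 and 4 lie below -0.3 and replicate 3 lies above 0.3; of the other 7, Cybb has the same order, at -0.10 and -0.07 on replicates 1 and 4, and 6 do not.

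Over the list as a whole, 13 of 18 tested genes had an estimate below 0 without replicate 3, against 49.4% of all features, and the median was -0.60, against 0.00 over all features. With all 3 arrays the list median was -0.27; by array it was -0.62 on replicate 1, 0.57 on replicate 3 and -0.61 on replicate 4. Of the 18, 11 were lower and 0 higher at an unadjusted p under 0.05 without replicate 3, against 3.81% and 3.53% of all features. Without both arrays in doubt 9 of 18 fell and 0 rose, against 0.237% and 0.131% of all features. Below -0.5 on both replicates 1 and 4 were 8 of 18, against 0.393% of all features. All 12 members that were below 0 on both replicates 1 and 4 were above 0 on replicate 3, as were 2759 of the 4291 features of the whole table that were below 0 on both. At an unadjusted p under 0.05, 0 of 18 were lower and 0 higher with all 3 arrays. The list and its members were chosen with earlier results of these arrays known, so these counts describe and do not test.

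The marker lists of other blood cells had medians closer to 0. For comparison, 49.4% of all features were below 0 without replicate 3. At an unadjusted p under 0.05, 3.81% of all features were lower and 3.53% higher. Of 15 monocyte and macrophage genes, 12 were below 0 without replicate 3 (median -0.17), 2 of them at an unadjusted p under 0.05 (0 with all 3 arrays): Lyz2 and Ccl6, a chemokine of myeloid cells. Ccl6 was at -0.78, 0.52 and -0.83 on replicates 1, 3 and 4, and fell in the fit without both arrays in doubt (adjusted p = 0.00881), as did Adam8, a surface metalloprotease, at -0.42, 0.41 and -0.67 (adjusted p = 0.0182). Fcer1g, the shared Fc receptor gamma chain, was at -0.37, -0.07 and -0.18, below 0 on all 3 arrays after centring, with an unadjusted p of 0.0503. Ccl9, another myeloid chemokine, was at -0.32, 0.12 and -0.31.

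Of 9 mast cell, basophil and eosinophil genes, 7 were below 0 (median -0.18), 2 of them at an unadjusted p under 0.05 (0 with all 3 arrays). Prg3, an eosinophil granule protein, was at -0.47, 0.46 and -0.35 on replicates 1, 3 and 4, and Cpa3, the mast cell carboxypeptidase, at -0.22, 0.12 and -0.60. Neither was called in the fits without replicate 3 or without both arrays in doubt. The 14 erythroid genes had a median of 0.00, with 7 above and 7 below 0. Car1, carbonic anhydrase 1 of red cells, was at 0.60, 0.06 and 0.40, above 0 on all 3 arrays, with an estimate of 0.50 without replicate 3 (SE 0.12, unadjusted p = 0.0012, adjusted p = 0.219, limma). The 10 megakaryocyte genes had a median of -0.04, and F2r, the thrombin receptor, stood at 0.40, -0.27 and 0.20.

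The 16 stem and progenitor genes were split evenly, 8 above and 8 below 0. Myb, a factor of proliferating progenitors, was at -0.16, 0.09 and -0.27 on replicates 1, 3 and 4, and Erg, an ETS factor of stem cells, at -0.25, -0.27 and -0.39. Erg was thus low on every 23 h array (with all 3, -0.27, SE 0.08, unadjusted p = 0.00505, limma). Ly6e was at -0.17, 0.21 and -0.56, and Cd34, a surface marker of progenitors, at 0.11, -0.07 and 0.24. The lists for cells that the culture should lack had medians near 0. The 14 lymphoid genes had a median of 0.04, with 10 above 0, and the 23 fibroblast and stroma genes a median of 0.03, with 15 above 0. Ms4a1, of the lymphoid list, was at 0.50, 1.225 and 0.19, above 0 on all 3 arrays. With all 3 its estimate was 0.67 (SE 0.17, unadjusted p = 0.00142, limma), and it was not called. Among the stroma genes, S100a4 was at -0.56, 0.36 and -0.40, and Sparc, a matrix protein, at 0.28, -0.10 and 0.13. The 15 pluripotency genes had a median of 0.10, with 12 above 0.

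Outside the granule list, several genes were lower on replicates 1 and 4, enzymes among them. Gstm1, a glutathione S-transferase, was at -1.01, 1.06 and -0.68 on replicates 1, 3 and 4, and Mgst2, a microsomal one, at -0.49, 0.51 and -0.63. In their antioxidant and glutathione list, 18 genes were below 0 and 16 above without replicate 3 (median -0.02), against 49.4% of all features below 0. With all 3 arrays, 0 of the list were lower and 0 higher at an unadjusted p under 0.05. Dao, D-amino acid oxidase, was at -0.51, 0.28 and -0.66, and Dhrs3, a retinaldehyde reductase, at -0.67, 0.52 and -0.45. Ubxn4, a protein of endoplasmic reticulum quality control, was at -0.71, 0.20 and -0.36, and Atxn2l, an RNA-binding protein, at -0.44, 0.34 and -0.60. All 6 were below 0 on replicates 1 and 4 and above 0 on replicate 3, and all 6 fell in the fit without both arrays in doubt, with adjusted p between 0.01 and 0.028. Uqcrc2, a core subunit of respiratory complex III, was at -0.52, 0.21 and -0.46 and missed that threshold (adjusted p = 0.0513). Mapkapk3, a stress-activated kinase, was at -0.52, 0.27 and -0.71 and fell in that fit (adjusted p = 0.0409).

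On the higher side, Glud1, Slc27a5 and Hs1bp3 were high on replicates 1 and 4. Glud1, mitochondrial glutamate dehydrogenase, was at 1.16, -1.60 and 1.53 on replicates 1, 3 and 4. Slc27a5, a bile acid and fatty acyl-CoA ligase, was at 0.93, -0.88 and 1.23, and Hs1bp3, a binding partner of the haematopoietic protein HS1, at 1.005, -1.13 and 1.15. These 3 were high on replicates 1 and 4 and low to the same extent on replicate 3. Without replicate 3 the estimates were 1.35 (SE 0.41) for Glud1, 1.08 (SE 0.24) for Slc27a5 and 1.08 (SE 0.29) for Hs1bp3, none called (adjusted p between 0.211 and 0.383, limma, n = 2). Without 7 h replicate 4 too, all 3 rose, with standard errors of 0.08 to 0.11 and adjusted p between 0.000474 and 0.000615. Glud1 and Hs1bp3 were named after their values were seen.

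The 12 genes with the smallest p higher without replicate 3 included Angel2, at 1.003, -0.18 and 0.73, and Wiz, a zinc finger partner of histone methyltransferases, at 0.66, -0.10 and 0.45 on replicates 1, 3 and 4. H2az1, a histone variant, was at 0.67, -0.37 and 0.37, and Psma1, a core proteasome subunit, at 0.65, -0.49 and 0.53. Igsf9 was at 0.46, -0.19 and 0.44, and Emb, embigin, a chaperone of monocarboxylate transporters, at 0.53, -0.59 and 0.48. All 6 rose in the fit without both arrays in doubt, with adjusted p between 0.00965 and 0.0338. Orc6 of the origin recognition complex (0.71, -0.46 and 0.40), Casp1, the inflammasome caspase (0.55, -0.38 and 0.36), and Pla2g2d, a secreted phospholipase (0.57, -0.15 and 0.21), were not called there.

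Among genes on the same side of 0 on all 3 arrays after centring, none was called. Their estimates still depend on the sign read for replicate 3: with it turned, that of Trim47 was 0.21 and that of Dync1li1 0.037. The shared side can also depend on the centring, which took 0.233 off replicate 3. Values less than 0.233 below 0 on that array were above 0 as deposited, as for Rad1, at -0.18 there. Trim47, a ubiquitin ligase, had the smallest p with all 3 arrays: it was at 0.58, 0.69 and 0.90 on replicates 1, 3 and 4, an estimate of 0.64 (SE 0.11, adjusted p = 0.665, limma, n = 3). Tor1aip1, a protein of the inner nuclear membrane, was at 0.89, 1.44 and 2.96, and Vps25, a subunit of an ESCRT complex, at 1.06, 0.77 and 2.63. Bnip3l, a mitophagy receptor related to Bnip3, was at 1.38, 0.50 and 0.82. These 4 were high on every 23 h array, with replicate 4 far above the others for Tor1aip1 and Vps25. Efcab10 was at 1.35, 1.52 and 0.64, Cysrt1 at 0.89, 0.45 and 0.49, and Zfp42, a marker of pluripotent cells, at 0.21, 0.21 and 0.77. Galc, galactosylceramidase, was at 0.19, 0.14 and 0.22.

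On the lower side, Nsfl1c, a cofactor of the segregase VCP, was at -2.06, -0.35 and -0.23 on replicates 1, 3 and 4, and Psmd7, a proteasome lid subunit, at -1.30, -0.31 and -0.36. In both, replicate 1 lay far below the other 2 arrays. Defb6, a beta-defensin, was at -0.73, -0.34 and -0.48, and Ost4, a small subunit of oligosaccharyltransferase, at -0.34, -0.36 and -0.29. Rad1, a DNA damage clamp subunit, was at -0.24, -0.18 and -0.60, and Dync1li1, a dynein chain, at -0.15, -0.60 and -0.38. With all 3 arrays the estimates were -1.05 (SE 0.22) for Nsfl1c, -0.66 (SE 0.17) for Psmd7, -0.51 (SE 0.12) for Defb6 and -0.32 (SE 0.08) for Ost4, with an adjusted p of 1.0 for each (limma, n = 3).

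**Figure D3:**
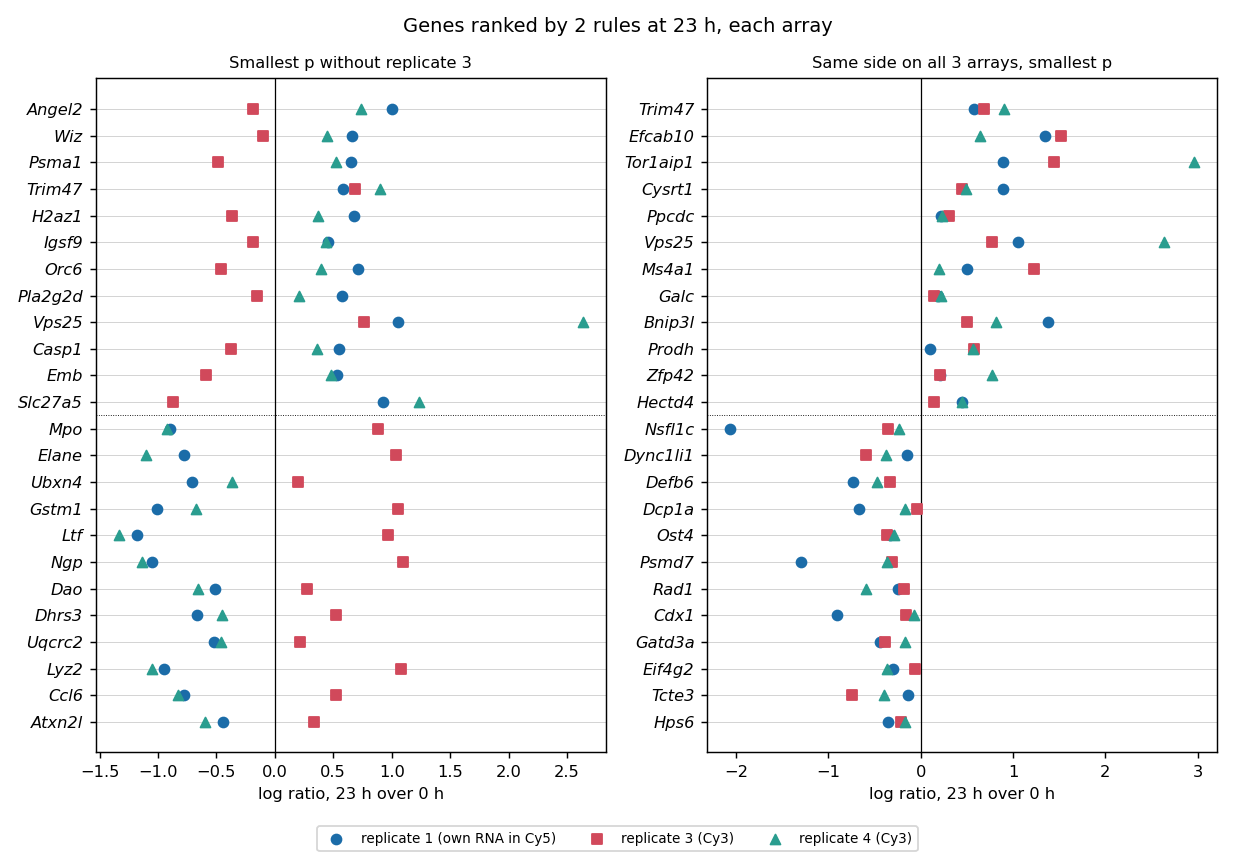
Log2 ratio of 23 h over 0 h (x axis) on each array for the 12 higher and 12 lower genes with the smallest p, without replicate 3 (left) and among genes on the same side on all 3 arrays (right); the dotted line parts higher from lower. On the left, replicate 3 lies on the other side of 0 for all but Trim47 and Vps25; on the right, all 3 symbols share a side by the choice of the genes.

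Of the unfolded protein and amino acid stress list, 29 of 37 genes (78.4%) were below 0 without replicate 3 (median -0.12), against 49.4% of all features. At an unadjusted p under 0.05, 10 were lower and 1 higher without replicate 3, against 3.81% and 3.53% of all features, while with all 3 arrays 0 were lower and 1 higher. Hspa5, the main chaperone of the endoplasmic reticulum, was at -0.56, 0.25 and -0.38 on replicates 1, 3 and 4 (estimate -0.47, SE 0.11, adjusted p = 0.219, limma). Calr, calreticulin, was at -0.42, 0.32 and -0.25, and Pdia6, a disulphide isomerase, at -0.43, 0.32 and -0.43. Phgdh, the first enzyme of serine synthesis, was at -0.18, 0.11 and -0.31. These 4 were below 0 on replicates 1 and 4 and above it on replicate 3, and none was called in any of the fits given here. The largest values of the list were those of Asns, asparagine synthetase, at -1.43, -0.23 and -0.65, and Slc7a5, a transporter of large neutral amino acids, at -0.53, 0.66 and -0.91. Asns was below 0 on all 3 arrays after centring and was not called (adjusted p = 0.353 without both arrays in doubt), while Slc7a5 fell in that fit (adjusted p = 0.0163). Adam8, Mapkapk3, Asns and Slc7a5 were picked for mention after their values were seen.

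Of 23 interleukin-3 and STAT5 target genes, 14 were below 0 without replicate 3 (median -0.11), against 49.4% of all features. At an unadjusted p under 0.05, 4 were lower and 2 higher, against 3.81% and 3.53% of all features. With all 3 arrays, 1 was lower and 2 higher, against 3.36% of all features in either direction. Cish, a STAT5-induced inhibitor of cytokine signalling, was at -0.68, 0.25 and -0.42 on replicates 1, 3 and 4. Csf2rb2, the mouse interleukin-3 receptor beta chain, was at -0.66, 0.56 and -0.44 and fell in the fit without both arrays in doubt (adjusted p = 0.0409); Cish was not called there (adjusted p = 0.056). Ccnd3, cyclin D3, was at 0.26, 0.02 and 0.25, and the kinase Jak2 at 0.18, -0.02 and 0.20.

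The cell division lists had more members above 0 without replicate 3, by small amounts. Of 42 mitosis genes 31 were above 0 without replicate 3 (median 0.09), 3 higher and 1 lower at an unadjusted p under 0.05, against 3.53% and 3.81% of all features; with all 3 arrays, 0 were higher and 0 lower. Smc4, a condensin subunit, was at 0.21, -0.45 and 0.55 on replicates 1, 3 and 4, Plk4, the centriole kinase, at 0.06, -0.42 and 0.42, and Nuf2 of the kinetochore at 0.49, -0.35 and 0.33. Prc1, a spindle midzone protein, went the other way, at -0.19, -0.04 and -0.24. Of 41 DNA replication genes 28 were above 0 without replicate 3 (median 0.07), 3 higher and 1 lower at that threshold. The counts turned with all 3 arrays, to 0 higher and 2 lower, with a median of 0.013. Pcna, the sliding clamp, was at 0.41, -0.78 and 0.51, and E2f1, a factor of S phase genes, at 0.25, -0.13 and 0.31.

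Of 52 translation factor and tRNA synthetase genes 36 were below 0 without replicate 3 (median -0.06), against 49.4% of all features. At an unadjusted p under 0.05, 4 were lower and 0 higher, against 3.81% and 3.53% of all features. With all 3 arrays, 3 were lower and 0 higher, against 3.36% of all features in either direction. The same shares apply to the other lists described here. Eif4g2 was at -0.29, -0.06 and -0.37 on replicates 1, 3 and 4, and Eef1g, an elongation factor subunit, at -0.40, -0.04 and -0.30. Both were below 0 on all 3 arrays after centring, which on replicate 3 rests on the median taken off that array. Of 56 ribosome biogenesis genes 29 were below 0 (median -0.01), 7 lower and 0 higher at that threshold, among them the nucleolar protein Nop56 (-0.38, 0.26 and -0.25), and 3 lower and 0 higher with all 3 arrays. In the list of the oestrogen receptor and its targets, 9 of 18 genes were below 0 (median -0.01) and 4 were lower at that threshold, against 0 with all 3 arrays. They included Ltf, Ctsd, a lysosomal protease (-0.73, 0.48 and -0.51), and Igfbp4, an insulin-like growth factor binding protein (-0.47, 0.58 and -0.59). Esr1 itself, the receptor that binds tamoxifen, was at 0.10, -0.16 and 0.01, with an estimate of 0.06 (SE 0.08). The glycolysis list (19 genes, median -0.07) and the hypoxia list (21 genes, median -0.09) had 0 genes lower and 1 higher each at that threshold. Medians of the ribosomal protein, oxidative phosphorylation, proteasome and splicing lists lay between -0.03 and 0.01. None of the list counts without replicate 3 was independent of the choice to leave it out.

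**Figure D4:**
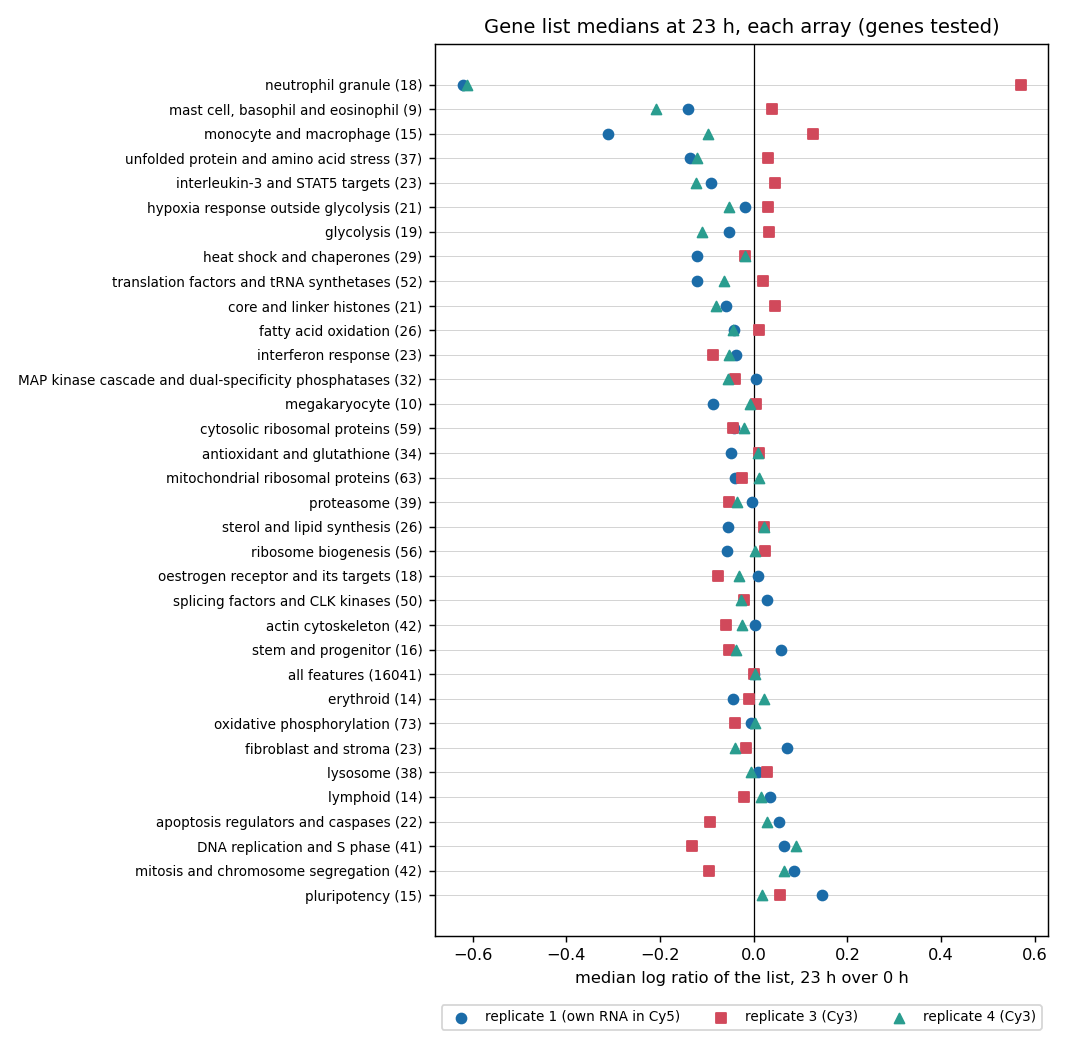
Median log2 ratio of 23 h over 0 h (x axis) of each gene list (rows, with the number of genes tested), with 1 symbol per 23 h array. The neutrophil granule list stands apart, at -0.62 and -0.61 on replicates 1 and 4 and 0.57 on replicate 3; every other list median lies between -0.31 and 0.15 on each array.

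The 23 h arrays were then set against the 12 h and 3 h arrays, which share the 0 h RNA as reference. Mpo was at -0.90 and -0.92 on 23 h replicates 1 and 4 and at 0.88 on 23 h replicate 3, against -0.16, -0.20, -0.21 and -0.34 on the 4 arrays at 12 h. The 12 h arrays, 2 of each dye, were all modestly below 0. Elane was at -0.78, 1.04 and -1.10 at 23 h, against -0.55, -0.47, -0.42 and -0.54 at 12 h, and Lyz2 at -0.95, 1.08 and -1.05 at 23 h, against -0.75, -0.63, -0.58 and -0.98 at 12 h. For Lyz2, 23 h replicate 1 lies within the range of the 12 h arrays. Without replicate 3, the difference of 23 h minus 12 h was -0.68 for Mpo (SE 0.12, adjusted p = 0.148, limma, n = 2 and 4). Without 7 h replicate 4 too, it was called (SE 0.10, adjusted p = 0.0385), among 8 features (0.0499%).

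Over the granule list, the 23 h median was -0.62, 0.57 and -0.61 on replicates 1, 3 and 4, against -0.41, -0.25, -0.22 and -0.40 on the 12 h arrays. On the 3 h arrays it was -0.07, -0.20, -0.12 and -0.12. In 6 of 18 granule genes (33.3%) both 23 h replicates 1 and 4 lay below every 12 h array, against 6.57% of all features. None lay above every 12 h array, against 5.74% of all features. Below every 3 h array were 11 of 18 (61.1%), against 10.2% of all features, and above every 3 h array 4 of 18 (22.2%), against 9.55%. With replicate 3 counted, 0 of 18 lay below every 12 h array and 0 above, against 352 and 336 of 16002 features. Below every 3 h array lay 0 of 18 and above it 2, against 541 and 532 of 16024 features.

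Glud1 and Hs1bp3 differed in their course. Glud1 was at 1.16, -1.60 and 1.53 at 23 h, against 1.38, 1.11, 1.32 and 0.998 at 12 h, so replicates 1 and 4 overlap the 12 h arrays. Hs1bp3 was at 1.005, -1.13 and 1.15 at 23 h, against 0.17, -0.04, 0.17 and 0.10 at 12 h. At 7 h Hs1bp3 was at 0.56, 0.76, 0.86 and -0.85, so 3 of the 7 h arrays and 2 of the 23 h arrays were high while all 4 at 12 h were near 0. Slc27a5 was less high at 7 h, at 0.32, 0.19, 0.70 and -0.78 on replicates 1 to 4. It was at 0.93, -0.88 and 1.23 at 23 h, against 0.04, -0.05, 0.10 and -0.11 at 12 h. The difference of 23 h minus 12 h without replicate 3 was 0.98 for Hs1bp3 (SE 0.35) and 1.08 for Slc27a5 (SE 0.30), neither called (adjusted p = 1 and 0.688, limma, n = 2 and 4). Without both arrays in doubt both were called (adjusted p = 0.00783).

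**Figure D5:**
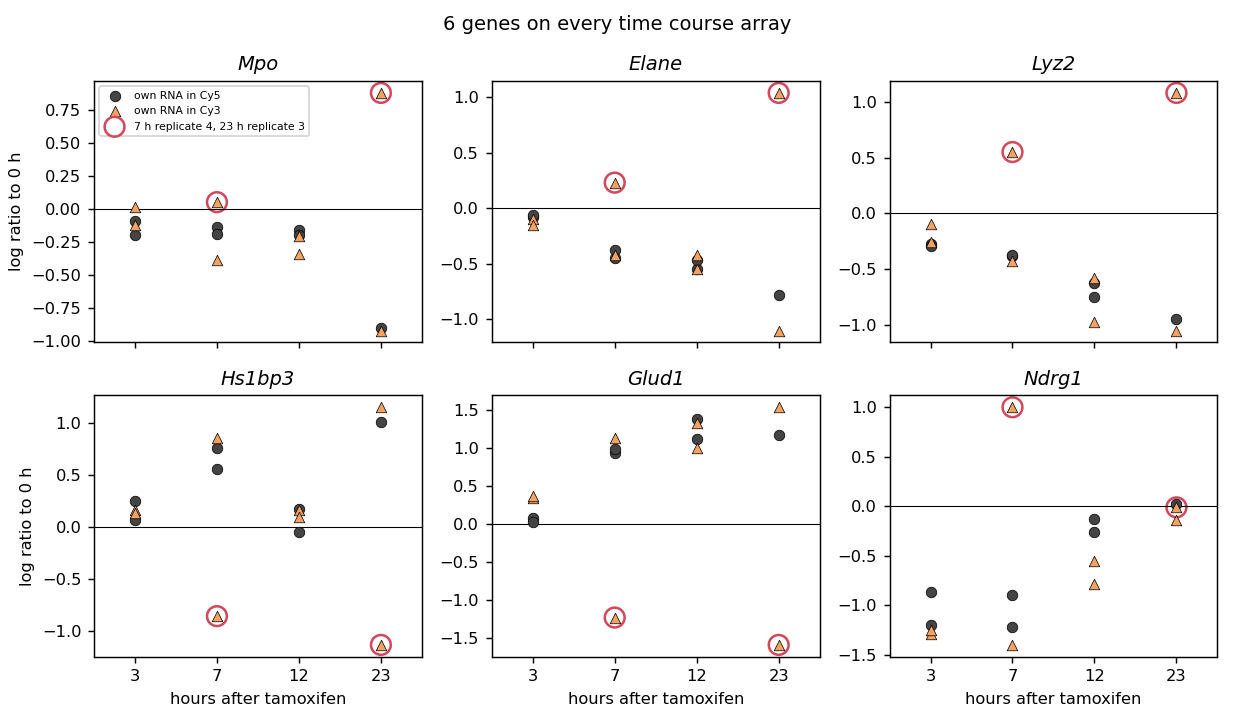
Log2 ratio to 0 h (y axis) of 6 genes on every array at 3, 7, 12 and 23 h after tamoxifen (x axis, not to scale), with circles for own RNA in Cy5 and triangles for Cy3. The ringed arrays, 7 h replicate 4 and 23 h replicate 3, lie on the other side of 0 from the rest of their group for every gene but Ndrg1 at 23 h, where all 3 arrays lie between -0.13 and 0.03.

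With all 3 arrays, 3 of 16115 features were called in 23 h minus 12 h (0.0186%), Cdkl1 and a pair of probes with no gene name, and 561 (3.48%) had an unadjusted p under 0.05. Without replicate 3, 3 features were called as well (0.0187%). They rest on few 12 h values. Cdkl1 was at 0.01, -0.07 and 0.18 at 23 h, against 3.07 on the only 12 h array with a value that was not set to missing, a difference of -3.10 (SE 0.16, adjusted p = 5.42e-05, limma). An unnamed probe was at 0.11, -0.00 and 0.23 at 23 h, against -1.16 and -1.81 on 2 arrays at 12 h (difference 1.63, SE 0.15, adjusted p = 0.0035). The other unnamed probe was at 0.22, -0.11 and 0.15 at 23 h, against -1.11 and -1.001 on 2 arrays at 12 h (difference 1.13, SE 0.13, adjusted p = 0.0171). All 3 features were near 0 at 23 h, so the difference lies in the 12 h values, and 0 of the 15695 features with a value on every time-course array were called (521 at an unadjusted p under 0.05). Angel2 was 0.92 higher at 23 h than at 12 h without replicate 3 and was not called (SE 0.16, adjusted p = 0.148, limma).

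Ndrg1, Bnip3, Selenbp1 and Selenbp2, named from earlier results of these data, were low at 3 h and nearer the 0 h level at 23 h. Calls for them are thus not independent of these data. The return was not particular to 23 h. At 12 h the means were -0.43 for Ndrg1, -0.29 for Bnip3, -0.20 for Selenbp1 and -0.34 for Selenbp2. Bnip3 ran from -0.87 to 0.16 on the 12 h arrays. Not every gene low at 3 h was nearer the 0 h level at 23 h. Cish had a mean of -0.42 at 3 h, and at 23 h of -0.55 without replicate 3 and -0.28 with all 3 arrays. Ndrg1, a stress-responsive gene, was at 0.03, -0.01 and -0.13 at 23 h, against -1.20, -0.86, -1.29 and -1.25 at 3 h. Bnip3, a mitochondrial protein of mitophagy, was at -0.14, -0.23 and -0.36 at 23 h, against -1.09, -1.01, -1.74 and -1.69 at 3 h. In both genes every 23 h array, replicate 3 included, lay above every 3 h array, as in 532 of 16024 features. Selenbp1, a selenium-binding protein, was at 0.14, 0.00 and -0.09 at 23 h, and its relative Selenbp2 at -0.20, 0.22 and -0.28. With all 3 arrays 0 of 16114 features were called in 23 h minus 3 h (0.0%), with 885 at an unadjusted p under 0.05 (5.49%). Without replicate 3, 0 of 16041 were called (0.0%), with 1355 at that threshold. Without replicate 3 the difference was 1.10 for Ndrg1 (SE 0.51, adjusted p = 0.594, limma, n = 2 and 4) and 1.13 for Bnip3 (SE 0.41, adjusted p = 0.505). Without both arrays in doubt the standard errors were 0.13 and 0.16, and both differences were called (adjusted p = 0.0122 and 0.0333), among 12 features (0.0748%) that also held Mpo, Elane, Ltf, Ngp, Camp and Lyz2 as lower and Glud1, Hs1bp3 and Slc27a5 as higher. Clk4, a splicing kinase, was at 0.23, -0.27 and 0.02 at 23 h.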

How the data were processed

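The values are log2 ratios of the 2 channels of each array, as deposited by the authors in 1 table of 20205 probes; 18 of the 19 columns had a median near 0 and 23 h replicate 3 did not. Which base, which numerator and which normalization the authors used is not stated, so base 2 and the direction were assumed. Probes were named from the platform annotation: 13891 had 1 symbol, 5 several and 6309 none, and 13855 matched RefSeq (GRCm38.p6). Values above 10 in size were set to missing, each array was centred on its median, and probes of a gene were averaged (9834 genes, 2969 of them with several probes), which gave 16148 features. Over the 15 time-course arrays, limma 3.58.1 (R 4.3.3) fitted 1 coefficient per time and a dye term, with Benjamini-Hochberg adjustment over all features and a call at an adjusted p under 0.05. Features with values on fewer than 2 arrays at 23 h were left out. Same-numbered replicates were checked for pairing. The members, the gene lists and the rules were chosen with earlier results of these data known. Named genes were up to 12 higher and 12 lower with the smallest p, among genes on the same side on all 3 arrays and among those on the same side on replicates 1 and 4, up to 4 per list, a few named in earlier results, and the first in the contrasts of times; exceptions are stated. The whole granule list is described gene by gene, beyond that rule. Alternatives changed the centring, scaling, normalization, extreme values, dye term, signs, arrays and probe averaging.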

Additional observations from a re-analysis of the deposited data

Results flagged for a closer look

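Among groups of 4 arrays, searched in selected genes and the granule list median, 1 array stood far from the other 3 in 5 cases. Chance marks about 1 in 20 groups. The genes were chosen with earlier results of these data known, so the 5 cases cannot be set against that share. All cases but 1 fell on the same array and are not independent of each other. On 7 h replicate 4, Elane was at 0.23, Lyz2 at 0.55, Glud1 at -1.24 and Selenbp1 at 0.72, each on the other side of 0 from the other 7 h arrays. On 12 h replicate 4, Trim47 was at 0.21, while the other 12 h arrays lay between -0.20 and -0.17.

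Between times, the difference of 23 h minus 12 h was -3.10 for Cdkl1, 1.63 for an unnamed probe and 1.13 for another with all 3 arrays at 23 h, all called by limma and all resting on 1 or 2 arrays at 12 h. In other genes every 23 h array lay on the opposite side of 0 from every array of another time. Against 7 h this difference was not tested. With all 3 arrays, the contrasts of Zfp42 with 12 h (adjusted p = 0.863, limma) and of Galc with 3 h (adjusted p = 0.856, limma) were not called. The 23 h means of these genes were 0.61 for Cysrt1, -0.38 for Dync1li1, -0.30 for Erg and -0.66 for Psmd7 against 7 h. The mean was 0.18 for Galc against both 3 h and 7 h, and 0.40 for Zfp42 against 12 h. Only genes named here were searched. All but Erg were named by a rule that asks for the same side of 0 on all 3 arrays at 23 h. That part of the pattern was thus set by the choice of genes, and the share of all features lying opposite another time was not counted.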

How the results depend on the processing

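With all 3 arrays, 0 features were called for 23 h against 0 h (limma, 541 at an unadjusted p under 0.05). The count was 1 without replicate 3 and 0 without replicate 1 or 4, 59 without both arrays in doubt, 35 with the sign of 23 h replicate 3 turned and 129 with the signs of both turned, the last an alternative added after seeing the data. Against the 1 feature called without replicate 3 (Mpo), 9 were called with arrays scaled to 1 spread, 5 with each probe on its own, 59 without both arrays in doubt, 0 with the sign of every Cy3 array changed and 0 with only the 23 h arrays in the fit; leaving out 1 more 23 h array gave 32 to 37, where the array left is assumed to vary like the other groups. The 3 features called for 23 h minus 12 h became 7 with quantile normalization, 5 without the dye term, 7 with the Cy3 signs changed, 0 with values required on all arrays, 8 without both arrays in doubt, 5 with replicate 3 turned, 11 with both turned, and 2 to 3 with 1 of the 23 h arrays left out. The 0 called for 23 h minus 3 h (885 at an unadjusted p under 0.05) became 12, 1 and 21 without both, with replicate 3 turned and with both turned, and 0 with any 1 of the 23 h arrays left out. Of 33 list medians, 23 were below 0 with all 3 arrays, 5 without centring, where the deposited median of replicate 3 enters, and 14 to 24 with 1 array left out (14 without replicate 1). The cause of these changes was not tested except where the setting names it. Same-numbered arrays correlated at -0.108 to 0.194 over 21 pairs (mean 0.027, against 0.044 for other numbers of the same dye), and 7 of 15 arrays correlated best with their own number. The share expected by chance was not worked out, and both arrays in doubt were included, so this check cannot exclude pairing. The numbers were not taken to pair the arrays in the main fits. With the replicate block 0 features were called for 23 h against 0 h, 1 without replicate 3, 3 for 23 h minus 12 h and 0 for 23 h minus 3 h.

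With the sign of every Cy3 array changed, genes below 0 went above it: Adam8 0.13, Anxa1 0.083, Atxn2l 0.076, Bnip3 0.11, Camp 0.16, Ccl6 0.026, Chil3 0.12, Cpa3 0.19, Dao 0.071, Dync1li1 0.26, Eif4g2 0.036, Elane 0.16, Erg 0.072, Igfbp4 0.059, Lcn2 0.054, Ltf 0.077, Ly6e 0.19, Lyz2 0.052, Mapkapk3 0.096, Mgst2 0.072, Mmp8 0.15, Mpo 0.012, Myb 0.056, Ndrg1 0.08, Ngp 0.042, Ost4 0.078, Phgdh 0.065, Prc1 0.025, Rad1 0.15, Selenbp2 0.038 and Slc7a5 0.19. Genes above 0 went below it: Cd34 -0.064, E2f1 -0.03, Efcab10 -0.28, Galc -0.059, Glud1 -0.18, Hs1bp3 -0.073, Jak2 -0.0095, Ncf4 -0.49, Pcna -0.049, Plk4 -0.18, Prtn3 -0.0035, Slc27a5 -0.15, Smc4 -0.17, Tor1aip1 -1.09, Trim47 -0.30, Vps25 -0.72 and Zfp42 -0.23. In the same setting 23 h minus 12 h was -0.38 for one unnamed probe and -1.06 for the other, and 23 h minus 3 h was -0.22 for Bnip3, 0.058 for Mpo and -0.041 for Ndrg1. With values above 10 kept, 23 h minus 12 h of Cdkl1 was 6.86. Other genes changed sign in other settings. With replicate 3 kept they were Cebpe -0.028, Clk4 -0.031, Cybb 0.16, Esr1 -0.0089, Mmp9 -0.0099 and Selenbp1 -0.0014. With the replicate block they were Clk4 -0.0059, Mmp9 -0.036 and Selenbp1 -0.063. With replicate 3 turned they were Dync1li1 0.037, Prtn3 -0.037 and Selenbp1 -0.0014, and with both turned Bnip3 0.019, Dync1li1 0.0496, Ndrg1 0.0089 and Prtn3 -0.0198. Leaving out replicate 1 or 4, the estimates ran Cebpe from -0.13 to 0.21, Chil3 from -0.15 to 0.038, Clk4 from -0.12 to 0.37, Cybb from -0.22 to 0.044, Mmp9 from -0.067 to 0.10, Ncf4 from -0.13 to 0.67, Ndrg1 from -0.16 to 0.0501 and Selenbp1 from -0.17 to 0.22.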
